A study of Mus musculus with 46 samples.

Results

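Trem2, Tyrobp, Gpnmb, Spp1, Lgals3 and Cst7 are 6 genes by which lipid-associated macrophages and disease-associated microglia are commonly recognised. They were taken by symbol from a count table of 24671 mouse genes, and all 6 were among the 13838 genes with enough counts to be tested. The cells were bone marrow-derived macrophages (BMDM), grown in culture from mouse bone marrow. They were treated with compounds that act on liver X receptors (LXR) or on estrogen receptors (ER), and 46 libraries of their polyadenylated RNA were sequenced. The series title asks whether different ligands modulate LXR selectively. There were 6 Vehicle libraries and 5 of each of 8 treatments. Of the compounds used alone, 27HC (27-hydroxycholesterol) is an oxysterol and a ligand of LXR as well as of ER. GW3965 is a synthetic agonist of LXR and GSK2033 an antagonist of it. E2 is estradiol, the natural ER agonist, and ICI is read here as the ER antagonist fulvestrant, an estradiol derivative with a long side chain. The combinations were GSK2033 + 27HC, ICI + 27HC, and GW3965 with a second compound. That compound is 27HC by the titles but ICI by the source and treatment fields, so it stays unnamed here. Doses, exposure times and the strain, sex and age of the mice are not in the labels used here. The labels do not say whether the libraries of 1 group are from different mice or dishes. The p-values therefore cover only the spread from library to library within a group, part or all of which may be technical.

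Lipid-associated macrophages gather around lipid-laden or dying cells, and in this state macrophages and microglia take up and digest lipid. TREM2 is a surface receptor that binds lipids and lipoproteins. It has no signalling tail of its own and passes its signal through the adaptor TYROBP, also called DAP12, which recruits the kinase SYK. GPNMB is a membrane glycoprotein of lysosomes and phagosomes, osteopontin (from Spp1) and galectin-3 (from Lgals3) are secreted or released proteins of the same macrophages, and cystatin F (from Cst7) inhibits cysteine proteases inside endolysosomes. LXR sense oxysterols and switch on genes that export cholesterol and make lipids.

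All 6 genes are protein-coding and lie on the plus strand of GRCm38. Trem2 (ENSMUSG00000023992) lies at chromosome 17, 48346401 to 48354147, and its longest annotated transcript has 4 exons. Tyrobp (ENSMUSG00000030579) lies at chromosome 7, 30413760 to 30417585. Gpnmb (ENSMUSG00000029816) lies at chromosome 6, 49036546 to 49070929. Spp1 (ENSMUSG00000029304) lies at chromosome 5, 104435118 to 104441050. Lgals3 (ENSMUSG00000050335) lies at chromosome 14, 47367751 to 47386160. Cst7 (ENSMUSG00000068129) lies at chromosome 2, 150570415 to 150578944.

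RefSeq's promoter table on GRCm38.p6 held 5 of the 6 genes, all but Tyrobp, in 6 windows of 300 bases. Each window was searched on both strands for CACGTG and CATGTG, E-boxes bound by MiT/TFE factors. It was also searched for TGANTCA, which allows any middle base, while the AP-1 motif has C or G there. The last search was for a DR4 element, 2 AGGTCA copies spaced by 4 bases, which LXR can bind. The stretches below, of 120 bases on the plus strand, show the start regions of Trem2, Gpnmb and Cst7, the genes whose windows held a match, and of Lgals3, whose group means followed those of Gpnmb most closely among the 6 genes. Each begins 100 bases before the RefSeq start, which can differ from the gene start given above, and capitals mark the TGANTCA match. For Lgals3 the stretch lies inside the gene, whose span was given as beginning at 47367751.
Trem2 (chr17:48346301-48346420): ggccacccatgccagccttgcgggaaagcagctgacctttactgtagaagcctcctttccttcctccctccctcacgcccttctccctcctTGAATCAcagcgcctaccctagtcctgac
Gpnmb (chr6:49036418-49036537): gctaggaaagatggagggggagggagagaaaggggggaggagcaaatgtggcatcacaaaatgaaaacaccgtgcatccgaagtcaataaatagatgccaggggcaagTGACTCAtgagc
Cst7 (chr2:150570315-150570434): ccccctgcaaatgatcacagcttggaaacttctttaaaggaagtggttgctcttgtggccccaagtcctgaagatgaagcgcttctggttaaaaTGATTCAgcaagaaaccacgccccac
Lgals3 (chr14:47373760-47373879): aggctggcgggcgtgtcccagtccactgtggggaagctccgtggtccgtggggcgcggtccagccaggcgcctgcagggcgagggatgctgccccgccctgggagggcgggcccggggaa
Counted from the start base as 0, the TGANTCA match ran from -9 to -3 in Trem2, from 8 to 14 in Gpnmb and from -6 to 0 in Cst7. The middle base was A in Trem2, C in Gpnmb and T in Cst7, so only the Gpnmb match has the AP-1 motif. Of all 32851 promoters in the table, 7.81% held TGANTCA, 7.15% CACGTG, 14.2% CATGTG and 0.0152% the DR4 element. Neither E-box nor the DR4 element was found in the windows of the 5 genes, which says only that these letters are not there.

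Total estimated counts ran from 19354093 to 30921038 per library. The treatments moved known LXR targets: of 7 (Abca1, Abcg1, Mylip, Srebf1, Scd2, Lpcat3 and Apoe), 7 rose with 27HC and with GW3965, and 7 fell with GSK2033. With E2 1 rose (Mylip) and 0 fell, while with ICI 2 rose (Mylip and Abcg1) and 2 fell (Scd2 and Apoe). All 8 macrophage markers were detected, and their summed level was 20883 to 22816 CPM in Vehicle libraries and 21952 to 23512 with E2. It was 14823 to 16162 after 27HC, 10935 to 11489 after GW3965 and 9186 to 9765 with the second compound added. It was 16565 to 17695 after GSK2033 and 12955 to 14460 after GSK2033 + 27HC. With ICI it was 14593 to 15282, and with ICI + 27HC 10513 to 11208. Lyz2 led the sum, and single markers went in opposite ways. From Vehicle to 27HC the mean of Lyz2 went from 10407 to 7749 CPM and that of Cd68 from 1192 to 1417. From Vehicle to GW3965 Adgre1 went from 4354 to 1689 CPM and Mertk from 85.1 to 149. Mitochondrially encoded transcripts took between 1.34% ± 0.114 (SD, n = 5) of counts with GSK2033 + 27HC and 2.17% ± 0.118 (SD, n = 5) with GW3965. Replicate 3 of GW3965 with the second compound stood apart from the other 4 libraries of its group for Tyrobp, Gpnmb and Cst7, and results of that group are given with and without it where it changed a call.

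Throughout, a level is in CPM, the count scaled to library size by TMM, given with the SD over libraries or in the order of replicates 1 to 5. A log2 fold change carries its standard error or its 95% interval. Adjusted p-values come from the quasi-likelihood test of edgeR and the Benjamini-Hochberg method over all 13838 genes, and a gene is said to have risen or fallen where this was under 0.05. In RNA from whole cultures, fewer cells of a type and less RNA per cell cannot be told apart.

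The 6 genes did not move as a block. Trem2 was highest with GW3965 and lowest under GSK2033. Gpnmb and Lgals3 rose with LXR agonists, with the LXR antagonist and with ICI, and were highest with ICI + 27HC. Spp1 rose in every group with 27HC named in all its labels, with or without an antagonist, and did not rise with GW3965. Cst7 fell with 27HC and GW3965 and rose with GSK2033 and ICI, and Tyrobp moved least.

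**Figure D1:**
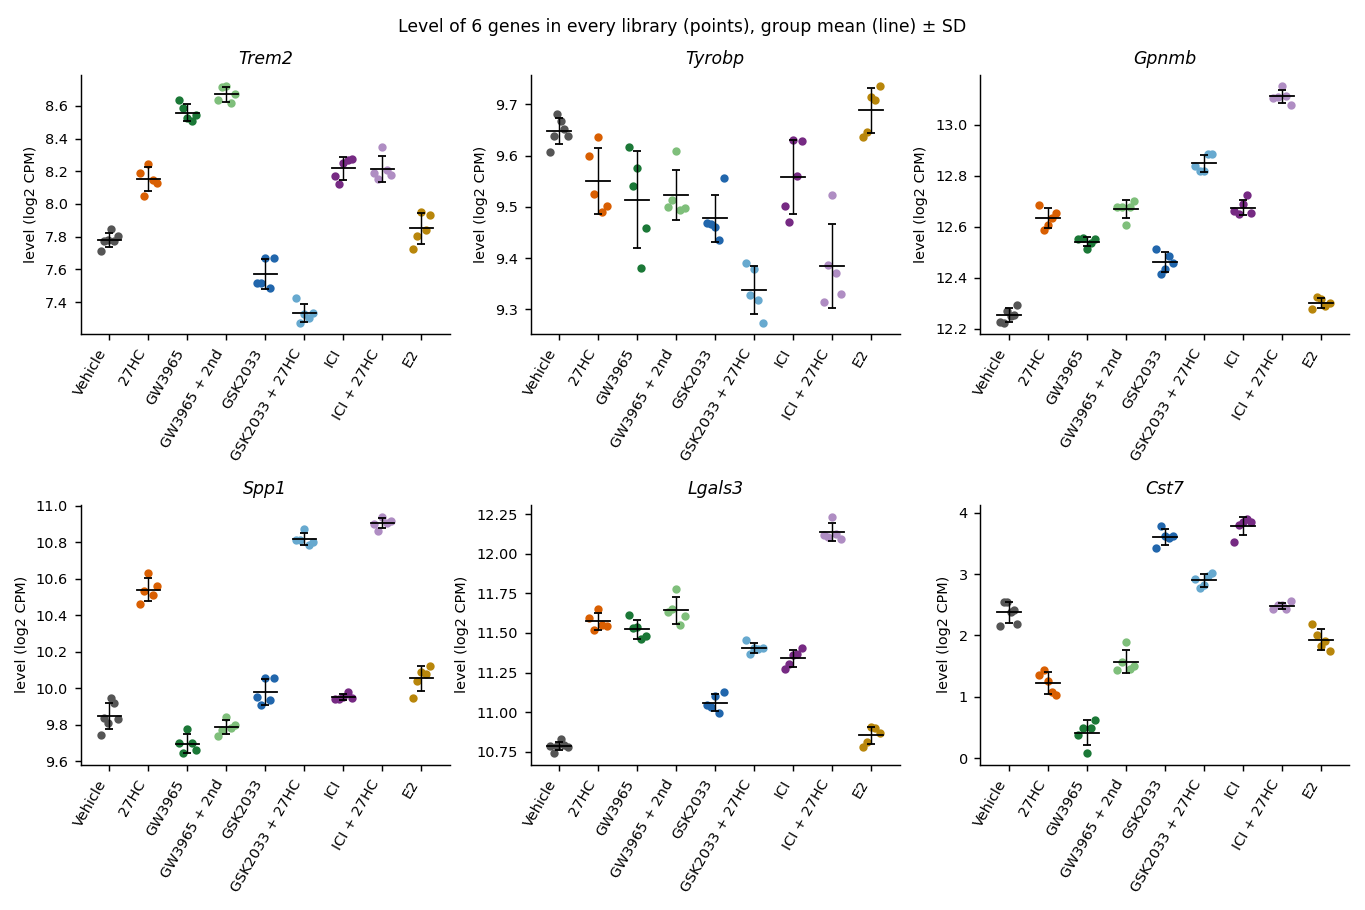
Level (log2 CPM, y axis) of the 6 genes in every library (points), with the mean (line) and SD (bar) of each of the 9 groups (x axis; "2nd" is the unnamed second compound). Trem2 runs from a mean of 161 CPM with GSK2033 + 27HC to 408 CPM with GW3965 and the second compound, while Tyrobp stays between 647 and 825 CPM.

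With Vehicle, Trem2, the lipid receptor, had a lowest level of 209.9, a median of 219 and a highest of 230.1 CPM over 6 libraries. The GW3965 libraries held 397, 385, 369, 364 and 373 CPM of Trem2, and those with the second compound added 398, 419.5, 421, 392 and 407. Every library with GW3965 lay above every library of the other 7 groups. Trem2 rose 1.71-fold with GW3965 alone (log2 0.78 ± 0.040, adjusted p = 1.91e-21), from 220.0 ± 6.64 (SD, n = 6) to 377 ± 13.4 CPM (SD, n = 5).

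With 27HC, Trem2 stood at 292, 264, 303, 283 and 279.8 CPM, all above Vehicle and below GW3965. It rose 1.29-fold (log2 0.37 ± 0.040, adjusted p = 1.18e-10), and set directly against GW3965 it was 1.33-fold lower (log2 -0.41, interval -0.49 to -0.32, adjusted p = 4.65e-11). With GSK2033 the libraries held 183, 183, 204, 179 and 203 CPM of Trem2, all below Vehicle. This was a fall of 1.16-fold (log2 -0.21 ± 0.040, adjusted p = 4.39e-05).

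Adding 27HC to GSK2033 left Trem2 at 172, 155, 161, 158 and 161 CPM, the lowest levels of the 9 groups. Alone, 27HC raised Trem2, and under GSK2033 it lowered it (log2 -0.24, interval -0.33 to -0.16, adjusted p = 8.75e-06). The interaction, the change with 27HC under GSK2033 less that without it, was -0.61 ± 0.058 (adjusted p = 2.03e-11).

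The ICI libraries held 288, 278, 305, 308 and 310.1 CPM of Trem2, all above Vehicle, and the ICI + 27HC libraries held 292, 284, 325, 295 and 289. Those groups overlapped, as did ICI + 27HC and 27HC alone. Trem2 rose 1.35-fold with ICI (log2 0.44 ± 0.040, adjusted p = 2.39e-12). Adding 27HC to ICI gave a log2 difference with an interval of -0.09 to 0.08 (adjusted p = 0.957), and the interaction of ICI and 27HC was -0.37 ± 0.058 (adjusted p = 2.21e-06). With E2, Trem2 stood at 212, 223, 247, 229 and 244 CPM, overlapping Vehicle, and the test did not call it (log2 0.07, interval -0.01 to 0.15, adjusted p = 0.424).

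From lowest to highest mean, Trem2 ran GSK2033 + 27HC, GSK2033, Vehicle, E2, 27HC, ICI + 27HC, ICI, GW3965, and GW3965 with the second compound. Neighbours in that order overlapped between Vehicle and E2, among 27HC, ICI + 27HC and ICI, and between both GW3965 groups. The second compound added a log2 difference of 0.11 to GW3965 (interval 0.03 to 0.20, adjusted p = 0.0532), and this was called without GW3965 replicate 1 (0.13, adjusted p = 0.0279) or without replicate 4 of the combination (0.13, adjusted p = 0.0413). Over the 9 group means Trem2 spanned 1.34 on the log2 scale, against a median span of 0.49 over all genes tested.

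Tyrobp, the adaptor that carries the signal of TREM2, had a lowest level of 780.1, a median of 801 and a highest of 821 CPM with Vehicle. Its highest group was E2, with 795, 801, 839.6, 837 and 852 CPM, and its lowest GSK2033 + 27HC, with 671, 643, 666, 639 and 619. The other 6 treated groups lay between 637 and 796 CPM. All neighbours in the order of its group means overlapped, and the whole span was 0.35 on the log2 scale.

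Tyrobp fell 1.24-fold with GSK2033 + 27HC (log2 -0.31 ± 0.036, adjusted p = 6.90e-10) and 1.20-fold with ICI + 27HC (log2 -0.26 ± 0.036, adjusted p = 3.71e-08), with no overlap with Vehicle in either. It fell by 0.17 on the log2 scale with GSK2033 (adjusted p = 1.73e-04), again with no overlap. With GW3965 it was lower by 0.13 (adjusted p = 0.00249) and with 27HC by 0.10 (adjusted p = 0.0299), and in both the libraries overlapped those of Vehicle. The 27HC call was lost without Vehicle replicate 3 (-0.09, adjusted p = 0.0581) or 27HC replicate 2 (-0.09, adjusted p = 0.0622), 4 (-0.08, adjusted p = 0.0884) or 5 (-0.08, adjusted p = 0.0930). With ICI, Tyrobp was not called (-0.09, interval -0.16 to -0.01, adjusted p = 0.0681), but it was without ICI replicate 3 (-0.11, adjusted p = 0.0375) or 5 (-0.11, adjusted p = 0.0281). With GW3965 and the second compound Tyrobp was lower by 0.12 (adjusted p = 0.00358), with overlap. So the receptor and its adaptor moved in opposite directions with GW3965, with and without the second compound, and with ICI + 27HC. They also did so with 27HC, where the Tyrobp call was lost in the runs named above. Both fell with GSK2033 and with GSK2033 + 27HC. Neither interaction was called for Tyrobp (GSK2033 with 27HC -0.04, interval -0.15 to 0.06; ICI with 27HC -0.08, interval -0.18 to 0.03).

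Of 17 genes that carry or limit the signal of TREM2 and TYROBP, 4 rose and 8 fell with 27HC (median log2 -0.09), 2 rose and 9 fell with GW3965 (-0.12), and 2 rose and 6 fell with GSK2033 (-0.03). With ICI 5 rose and 5 fell (-0.07), and with GSK2033 + 27HC 1 rose and 14 fell (-0.27), while the median over all genes tested lay between -0.01 and 0.01 in each of these comparisons. The 1 gene that rose in all 5 of these groups was Lat2, an adaptor of immune receptor signalling, by 1.08 with 27HC, 1.03 with GW3965, 0.43 with GSK2033, 0.78 with ICI and 0.89 with GSK2033 + 27HC. Pik3ap1, an adaptor for PI3-kinase, fell by 0.24 with 27HC and by 0.46 with GW3965. Pik3cd, a catalytic subunit of PI3-kinase, changed by 0.50 with GW3965 and by -0.78 with GSK2033. Inpp5d, the phosphatase SHIP1 that opposes PI3-kinase, fell by 0.44 with GSK2033.

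A further list held receptors linked to TYROBP, and whether each pairs with it directly was not tested. Of its 14 tested genes, 3 rose and 9 fell with 27HC (median -0.24) and 3 rose and 9 fell with GW3965 (-0.68). With GSK2033 2 rose and 10 fell (-0.29), and with ICI 2 rose and 8 fell (-0.25). Csf1r, the receptor for the growth factor M-CSF, fell by 0.36 with 27HC, by 0.36 with GW3965, by 0.35 with GSK2033 and by 0.27 with ICI. Clec5a, a lectin receptor, rose by 0.90 with GSK2033, and Cd300ld fell by 1.16 with GW3965. Pilrb1 fell by 1.19 with 27HC and by 2.82 with GW3965, but it is a close copy of Pilrb2, and how reads were split between them is uncertain.

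Gpnmb, the lysosomal membrane glycoprotein, had a lowest level of 4782, a median of 4878 and a highest of 5021 CPM with Vehicle. The 27HC libraries held 6590.5, 6155, 6236, 6362 and 6433 CPM of Gpnmb, and the GW3965 libraries held 6007, 6022, 5841, 5929.9 and 6002. The LXR antagonist GSK2033 gave 5844, 5452, 5529.7, 5738 and 5616. All 3 groups lay above Vehicle without overlap, so the agonists and the antagonist moved Gpnmb the same way.

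Gpnmb rose 1.30-fold with 27HC (log2 0.38 ± 0.020, adjusted p = 3.59e-21), 1.22-fold with GW3965 (log2 0.29 ± 0.020, adjusted p = 4.42e-17) and 1.15-fold with GSK2033 (log2 0.21 ± 0.020, adjusted p = 3.95e-12). Between 27HC and GW3965 it was higher with 27HC by 0.09 (interval 0.05 to 0.13, adjusted p = 4.00e-04). With E2, Gpnmb stood at 4957, 5121, 5099, 4999.6 and 5048 CPM, overlapping Vehicle, and was not called (log2 0.05, interval 0.01 to 0.09, adjusted p = 0.194).

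With ICI, Gpnmb stood at 6473, 6430.3, 6594, 6757 and 6437 CPM, and with ICI + 27HC at 8816, 8836, 9091, 8862 and 8635. The GSK2033 + 27HC libraries held 7322, 7229.8, 7222, 7554 and 7554 CPM. Both combinations lay above every library given 1 of their compounds alone. Gpnmb rose 1.34-fold with ICI (log2 0.42 ± 0.020, adjusted p = 6.24e-22), 1.51-fold with GSK2033 + 27HC (log2 0.60 ± 0.020, adjusted p = 1.47e-28) and 1.81-fold with ICI + 27HC (log2 0.86 ± 0.020, adjusted p = 8.76e-35).

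The log2 change of Gpnmb with 27HC was 0.38 without an antagonist, 0.39 under GSK2033 and 0.44 under ICI. Neither interaction was called, with 0.01 (interval -0.05 to 0.06, adjusted p = 0.901) for GSK2033 and 0.06 (interval -0.00 to 0.11, adjusted p = 0.195) for ICI. GW3965 with the second compound held 6555, 6545, 6234, 6550.0 and 6651 CPM of Gpnmb, above all GW3965 libraries by 0.13 on the log2 scale (adjusted p = 6.08e-06). Without its replicate 3, the lowest, the difference was 0.14 (adjusted p = 3.66e-07).

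MiT/TFE factors such as MITF and TFEB are known to drive Gpnmb and lysosomal genes. Of 22 genes for these factors and their targets, 9 rose and 5 fell with 27HC (median 0.06), 11 rose and 7 fell with GW3965 (0.08), and 10 rose and 4 fell with GSK2033 (0.11). With ICI 13 rose and 2 fell (0.12), with GSK2033 + 27HC 10 rose and 8 fell (0.09), and with ICI + 27HC 12 rose and 5 fell (0.13). Of all genes tested, 40.3% were called with 27HC, 44.2% with GW3965 and 36.3% with GSK2033. The share was 26.4% with ICI, 50.4% with GSK2033 + 27HC and 53% with ICI + 27HC. Whether these factors had a part in the changes of Gpnmb was not tested. Sqstm1, the autophagy receptor p62, rose by 0.56 with GW3965, by 0.75 with GSK2033, by 0.35 with ICI and by 1.27 with ICI + 27HC. Atp6v0d2, a subunit of the proton pump, rose by 0.53 with 27HC, by 0.46 with GSK2033, by 0.68 with ICI and by 1.50 with ICI + 27HC. Fnip2, a partner of folliculin, rose by 0.43 with 27HC, by 0.46 with GW3965 and by 0.96 with ICI + 27HC.

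Spp1 encodes osteopontin, a secreted ligand of integrins and CD44. With Vehicle it had a lowest level of 858, a median of 913 and a highest of 985 CPM. The 27HC libraries held 1409, 1484, 1584, 1458 and 1511 CPM of Spp1, while the GW3965 libraries held 831, 802, 878, 832 and 809. No 27HC library overlapped Vehicle or GW3965, and GW3965 overlapped Vehicle at its upper end.

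Spp1 rose 1.61-fold with 27HC (log2 0.69 ± 0.032, adjusted p = 6.70e-23) and fell 1.11-fold with GW3965 (log2 -0.15 ± 0.032, adjusted p = 1.09e-04). Set directly against GW3965, it was 1.79-fold higher with 27HC (log2 0.84, interval 0.78 to 0.91, adjusted p = 8.31e-25). Spp1 thus went in opposite directions with these LXR agonists.

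GSK2033 gave 989, 961, 1066, 978 and 1065 CPM of Spp1, and GSK2033 + 27HC gave 1800.5, 1796, 1875, 1767 and 1787. ICI gave 983, 982, 989, 1008 and 985, and ICI + 27HC gave 1913, 1861, 1965, 1919.8 and 1932. Each combination lay above all libraries of 27HC alone, and neither antagonist alone reached that level. Spp1 rose 1.96-fold with GSK2033 + 27HC (log2 0.97 ± 0.032, adjusted p = 1.65e-28) and 2.08-fold with ICI + 27HC (log2 1.06 ± 0.032, adjusted p = 3.46e-30).

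The log2 change of Spp1 with 27HC was 0.69 alone, 0.84 under GSK2033 and 0.96 under ICI. The interaction with ICI was 0.26 ± 0.046 (adjusted p = 2.23e-05). The interaction with GSK2033 was 0.14 ± 0.046 (adjusted p = 0.0208), and it was not called without Vehicle replicate 4 (0.12, adjusted p = 0.0550), 27HC replicate 1 (0.12, adjusted p = 0.0598), GSK2033 replicate 2 (0.12, adjusted p = 0.0664) or GSK2033 replicate 4 (0.13, adjusted p = 0.0514).

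Smaller changes of Spp1 overlapped Vehicle: 0.21 with E2 (adjusted p = 8.17e-06), 0.13 with GSK2033 (adjusted p = 6.99e-04) and 0.10 with ICI (adjusted p = 0.0140). The ICI call was lost without Vehicle replicate 1, the lowest Vehicle library (0.08, adjusted p = 0.0575). E2 libraries held 985, 1051, 1089.7, 1082 and 1113 CPM. With GW3965 and the second compound Spp1 stood at 854, 873, 919, 882 and 891 CPM, which overlapped both GW3965 (0.09, interval 0.02 to 0.16, adjusted p = 0.0549) and Vehicle (-0.06, interval -0.13 to 0.00, adjusted p = 0.110). Against Vehicle it was called without Vehicle replicate 1 (-0.08, adjusted p = 0.0321) or replicate 3 of the combination (-0.08, adjusted p = 0.0369), and against GW3965 without GW3965 replicate 3 (0.11, adjusted p = 0.0185) or replicate 1 of the combination (0.10, adjusted p = 0.0435).

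Osteoclasts and osteoblasts also make osteopontin, so their markers are given beside these values. Of 9 osteoclast markers, Ocstamp, Calcr and Oscar stayed below 1 CPM in every library. The summed level of the 9 was 176 to 217 CPM with Vehicle, 163 to 176 with 27HC, 198 to 211 with GSK2033 + 27HC and 194 to 204 with ICI + 27HC. It was 100.2 to 103 with GW3965 and 108 to 118 with the second compound added, below every Vehicle library, and Spp1 did not rise there. It overlapped Vehicle with E2 (196 to 222), GSK2033 (178 to 200) and ICI (165 to 186). Single markers went in opposite ways: from Vehicle to ICI + 27HC the mean of Atp6v0d2 went from 34.6 to 97.7 CPM and that of Itgb3 from 7.70 to 17.2, as Spp1 rose, while Mmp9 went from 109 to 51.6 and Acp5 from 25.9 to 16.3. Among 12 stromal and osteoblast markers, the osteoblast genes Bglap and Ibsp stayed below 1 CPM in every library, as did Lum. The summed level of the 12, led by the collagen gene Col1a1, was 4282 to 5057 CPM with Vehicle, 3377 to 3822 with 27HC, 3630.0 to 3957 with GSK2033 + 27HC and 2766 to 3162 with ICI + 27HC, so that in the 3 groups with the highest Spp1 it lay below every Vehicle library. It also lay below Vehicle with GW3965 (3248 to 3888) and with the second compound added (2725 to 3305), where Spp1 did not rise, and with ICI (3595 to 4239). It overlapped Vehicle with E2 (4413 to 4966) and GSK2033 (3720.2 to 4534), where Spp1 rose less. The part of these cells in the result was not tested.

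Of 9 genes for osteopontin and GPNMB receptors and partners, 6 rose and 1 fell with 27HC (median 0.10), 3 rose and 4 fell with GW3965 (0.01), 2 rose and 6 fell with GSK2033 (-0.13), and 0 rose and 6 fell with ICI (-0.21). With GSK2033 + 27HC 1 rose and 5 fell (-0.09), and with ICI + 27HC 3 rose and 5 fell (-0.18). Cd44, the hyaluronan receptor that also binds osteopontin, rose by 0.18 with 27HC and fell by 0.42 with GW3965. Itgav, the integrin chain alpha v, rose by 0.39 with 27HC and by 0.38 with GW3965 and fell by 0.30 with GSK2033 and by 0.19 with GSK2033 + 27HC. Itgb3, its partner chain, rose by 0.82 with GSK2033 + 27HC and by 1.17 with ICI + 27HC. In the same 2 groups Itgb5, another partner chain of alpha v, fell by 0.93 and 0.60, and Itga4, the integrin chain alpha 4, fell by 0.71 and 1.55.

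Lgals3 encodes galectin-3, a sugar-binding protein that gathers on damaged lysosomes. With Vehicle its lowest level was 1715, its median 1767 and its highest 1821 CPM. Lgals3 stood at 3098, 2937, 3219, 3005 and 2986 CPM with 27HC, and at 3127, 2959, 2972, 2815 and 2856 with GW3965. Both agonist groups lay far above Vehicle and overlapped each other.

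Lgals3 rose 1.72-fold with 27HC (log2 0.79 ± 0.032, adjusted p = 1.02e-24) and 1.67-fold with GW3965 (log2 0.74 ± 0.032, adjusted p = 6.40e-24). The difference between the agonists was not called (0.05, interval -0.02 to 0.12, adjusted p = 0.316). GSK2033 gave 2114, 2094, 2202, 2043 and 2237 CPM, above Vehicle and below the agonists, a rise of 1.21-fold (log2 0.27 ± 0.032, adjusted p = 1.78e-09). With E2 Lgals3 stood at 1763, 1801, 1921, 1915 and 1869 CPM, overlapping Vehicle (0.07, interval 0.00 to 0.13, adjusted p = 0.292).

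ICI gave 2473, 2526, 2635, 2636 and 2712 CPM of Lgals3, and ICI + 27HC gave 4443, 4400.3, 4816, 4472 and 4366, the highest of the 9 groups without overlap. Lgals3 rose 1.47-fold with ICI (log2 0.55 ± 0.032, adjusted p = 1.45e-18) and 2.55-fold with ICI + 27HC (log2 1.35 ± 0.032, adjusted p = 7.22e-34). The change with 27HC was 0.79 alone and 0.79 under ICI, and the interaction was not called (0.01, interval -0.09 to 0.10, adjusted p = 0.949).

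GSK2033 + 27HC gave 2806, 2637, 2714, 2698 and 2713 CPM of Lgals3, below all 27HC libraries and above all GSK2033 libraries. Under GSK2033 the change with 27HC was 0.34 (interval 0.28 to 0.41, adjusted p = 1.19e-11) in place of 0.79, an interaction of -0.44 ± 0.047 (adjusted p = 3.54e-10). For Gpnmb the same interaction was not called, and whether the genes differ in it was not tested.

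GW3965 with the second compound held 3169, 3219.6, 3514, 2993 and 3114 CPM of Lgals3. It overlapped GW3965 and was higher by 0.12 (adjusted p = 0.00854), a call lost without its replicate 3, the highest library (0.09, adjusted p = 0.0620).

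Of 8 other galectin genes and partners, 4 had enough counts to be tested: Lgals1, Lgals8, Lgals9 and Lgals3bp. Of these, 1 rose and 3 fell with 27HC (median -0.59), 0 rose and 3 fell with GW3965 (-0.83), and 2 rose and 0 fell with GSK2033 (0.12). Lgals3bp, which encodes a ligand of galectin-3, fell by 1.00 with 27HC and by 1.41 with GW3965 and rose by 0.22 with GSK2033. Lgals9 fell by 0.88 with 27HC and by 1.15 with GW3965 and rose by 0.19 with GSK2033. Lgals3 rose in each of these comparisons.

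Cst7, the inhibitor cystatin F, had 19 to 432 counts per library, so its levels are the least precise of the 6. With Vehicle its lowest level was 4.36, its median 5.21 and its highest 5.78 CPM. The 27HC libraries held 2.48, 2.62, 2.3, 2.02 and 1.94 CPM of Cst7, and the GW3965 libraries 1.22, 1.31, 0.975, 1.32 and 1.46. Both groups lay below Vehicle, and GW3965 lay below 27HC, without overlap.

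Cst7 fell 2.25-fold with 27HC (log2 -1.17 ± 0.10, adjusted p = 3.47e-13) and 4.05-fold with GW3965 (log2 -2.02 ± 0.11, adjusted p = 6.55e-20). GSK2033 gave 10.6, 13.7, 12.2, 12.0 and 12.3 CPM, above every Vehicle library, a rise of 2.36-fold (log2 1.24 ± 0.088, adjusted p = 7.27e-16). So Cst7 moved opposite to the LXR targets with both agonists and the antagonist.

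ICI gave 11.4, 13.8, 14.4, 14.9 and 14.4 CPM of Cst7, the highest group mean, a rise of 2.68-fold (log2 1.42 ± 0.088, adjusted p = 1.05e-17). With E2 the levels were 4.46, 3.92, 3.45, 3.67 and 3.26, a fall of 1.36-fold (log2 -0.45 ± 0.097, adjusted p = 0.00172) in which 1 library overlapped Vehicle. E2 and ICI thus lay on opposite sides of Vehicle.

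Where 27HC was added to an antagonist, Cst7 lay between the groups given either compound alone. The GSK2033 + 27HC libraries held 7.45, 6.72, 6.97, 7.78 and 8.01 CPM, and the ICI + 27HC libraries held 5.32, 5.54, 5.59, 5.29 and 5.79. The ICI combination overlapped Vehicle and was not called against it (0.10, interval -0.08 to 0.29, adjusted p = 0.374). The change with 27HC was -1.17 alone, -0.72 under GSK2033 and -1.32 under ICI, an interaction of 0.46 ± 0.14 (adjusted p = 0.0128) for GSK2033 and of -0.15 (interval -0.43 to 0.13, adjusted p = 0.553) for ICI.

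The second compound raised Cst7 over GW3965 by 1.20 on the log2 scale (interval 0.95 to 1.45, adjusted p = 1.89e-10), to 2.62, 2.89, 3.64, 2.65 and 2.76 CPM. All 5 libraries lay above those of GW3965 and below Vehicle. Without replicate 3, the highest, the difference was 1.11 (adjusted p = 1.94e-09).

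Cytotoxic lymphocytes also make cystatin F. Their 10 NK and T cell markers, among them Cd3e, Ncr1, Nkg7 and Prf1, were below 1 CPM in every library and summed to 1.35 to 1.76 CPM with Vehicle, 0.697 to 1.89 with GSK2033 and 0.936 to 1.83 with ICI. Their sum overlapped that of Vehicle in these groups, where Cst7 was above every Vehicle library. It lay below every Vehicle library, as Cst7 did, with 27HC (0.504 to 0.795), GW3965 (0.718 to 1.18) and GW3965 with the second compound (0.475 to 1.12). It was also below with GSK2033 + 27HC (0.365 to 0.882), where Cst7 was above Vehicle, and with ICI + 27HC (0.349 to 0.772), where Cst7 overlapped it. With E2, where Cst7 fell, the sum was 1.08 to 1.85 CPM and overlapped that of Vehicle. The part of these cells in the result was not tested.

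Of 11 tested genes for other cystatins and the cysteine proteases they act on, 3 rose and 6 fell with 27HC (median -0.10), 3 rose and 5 fell with GW3965 (0.05), 2 rose and 6 fell with GSK2033 (-0.22), and 5 rose and 2 fell with ICI (0.01). Ctsc encodes cathepsin C, a main target of cystatin F that activates other proteases. It fell by 0.86 with 27HC, by 1.87 with GW3965, by 0.40 with GSK2033 and by 0.69 with ICI, so that it fell both where Cst7 fell and where Cst7 rose. Ctsb, cathepsin B, rose by 0.33 with 27HC, by 0.36 with GW3965 and by 0.24 with ICI.

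**Figure D2:**
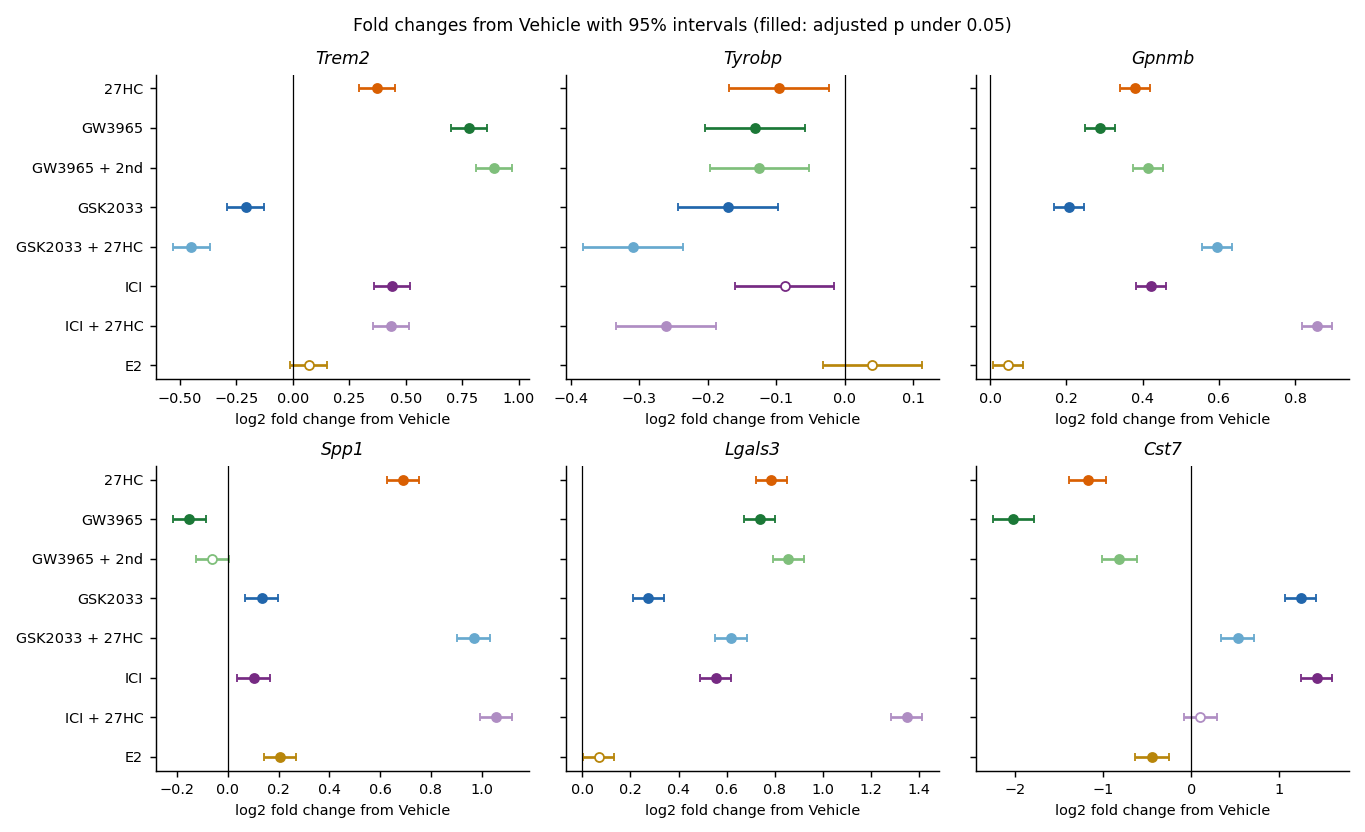
Log2 fold change from Vehicle (x axis) of each gene in the 8 treated groups (y axis), with 95% intervals; filled points have an adjusted p under 0.05. Spp1 is at 0.69 with 27HC and -0.15 with GW3965, while Cst7 is at -2.02 with GW3965 and 1.42 with ICI.

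Set against the background of each comparison, counts of called genes among the 6 say little, because many genes changed. The shares of all genes called, given here, are also the background for the counts in the gene lists. With 27HC 4 rose and 2 fell, where 40.3% of all genes tested were called. With GW3965 3 rose and 3 fell (44.2% of all genes called), and with GSK2033 4 rose and 2 fell (36.3%). With ICI 5 rose and 0 fell (26.4%), and with E2 1 rose (Spp1) and 1 fell (Cst7), where only 4.7% of all genes were called. With GSK2033 + 27HC 4 rose and 2 fell (50.4%), with ICI + 27HC 4 rose and 1 fell (53%), and with GW3965 and the second compound 3 rose and 2 fell (49.5%).

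Between 27HC and GW3965, 3 of the 6 were higher and 1 lower with 27HC, where 25.3% of all genes were called. Adding 27HC to GSK2033 raised 3 (Gpnmb, Spp1 and Lgals3) and lowered 3 (35.8%), and adding 27HC to ICI raised the same 3 and lowered 2, Tyrobp and Cst7 (40.4%). Adding GSK2033 to 27HC raised 3 and lowered 3 (42.8%), and adding ICI to 27HC raised 4 and lowered 1 (34.1%). Adding the second compound to GW3965 raised 3, Gpnmb, Lgals3 and Cst7, and lowered 0 (17.5%). The interaction with 27HC was called for 4 of the 6 with GSK2033 (19.6%), and for Trem2 and Spp1 with ICI (17.4%).

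Estradiol and ICI act on the same receptor, and their doses are not in the labels, so the values stand side by side. E2 less ICI was -0.37 for Trem2 (adjusted p = 1.03e-09), -0.37 for Gpnmb (adjusted p = 1.77e-19), -0.49 for Lgals3 (adjusted p = 5.33e-16) and -1.87 for Cst7 (adjusted p = 2.04e-20), all without overlap. It was 0.13 for Tyrobp (adjusted p = 0.00764) without overlap, and 0.11 for Spp1 (adjusted p = 0.0140) with overlap. Of the 6 genes 2 were higher and 4 lower with E2, where 27.5% of all genes tested were called.

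**Figure D3:**
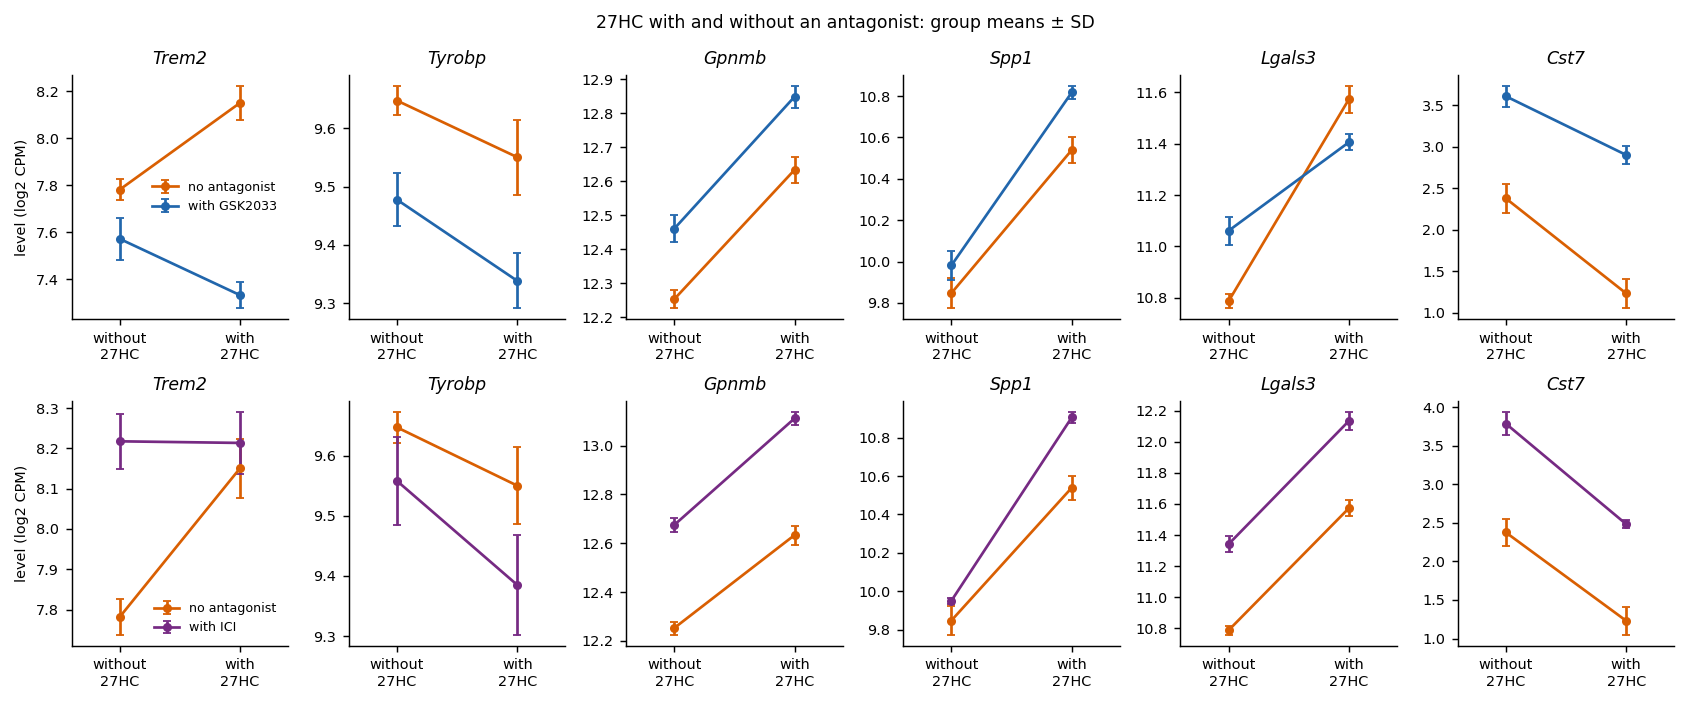
Mean level (log2 CPM, y axis) ± SD of each gene without and with 27HC (x axis), in the absence of an antagonist and under GSK2033 (top) or ICI (bottom). The lines of Gpnmb run parallel under both antagonists, those of Trem2 slope in opposite directions under GSK2033 (0.37 against -0.24), and the line of Trem2 is flat under ICI.

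Over the 9 group means, the closest pair was Gpnmb and Lgals3, with a Pearson correlation of 0.905. Gpnmb and Spp1 stood at 0.728, Tyrobp and Gpnmb at -0.834, Trem2 and Cst7 at -0.578, and Trem2 and Tyrobp at 0.175. These are descriptions over 9 points, which share their libraries and scaling. Within groups the picture was another. Over the deviations of 46 libraries from their group means, Trem2 and Lgals3 stood at 0.821, Tyrobp and Lgals3 at 0.809 and Trem2 and Tyrobp at 0.707, while Gpnmb and Lgals3 stood at -0.0273. Spp1 stood at 0.565 with Trem2, 0.497 with Lgals3 and 0.403 with Tyrobp. The other pairs, all with Gpnmb or Cst7, lay between -0.18 and 0.19. The libraries of a group thus varied together most in Trem2, Tyrobp and Lgals3 and less so in Spp1. The correlation of these deviations with the log2 total count was -0.28 to 0.13 over the 6 genes, and with the mitochondrial share -0.18 to 0.31.

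**Figure D4:**
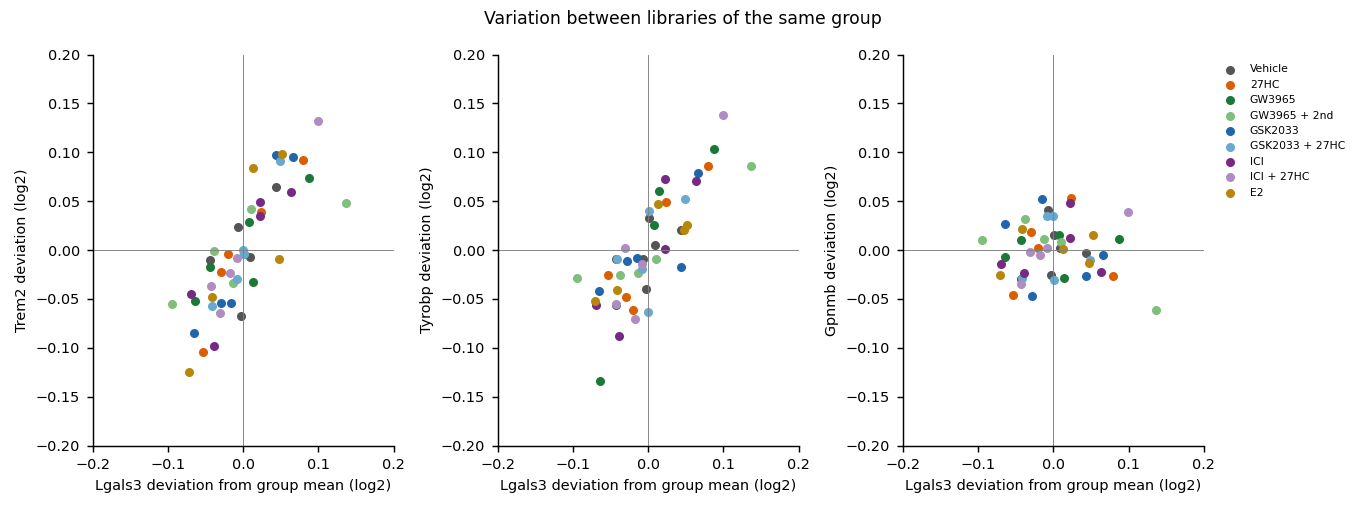
Deviation of each of the 46 libraries from its group mean (log2) in Trem2, Tyrobp and Gpnmb (y axes) against that in Lgals3 (x axis), coloured by group. Points rise along the diagonal for Trem2 (0.821) and Tyrobp (0.809) and form a round cloud for Gpnmb (-0.0273).

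The genes whose group means were most like each of the 6 were looked for among 4808 genes with a mean of at least 1 CPM and a span of at least 0.5 on the log2 scale. Trem2 was followed by Shisa9 (0.989), Lpl (0.988), which encodes lipoprotein lipase, and B4galt6 (0.985). Tyrobp was followed by Gpr34 (0.985), a microglial and macrophage receptor, Abca9 (0.982) and Entpd1 (0.982), the ATP-degrading enzyme CD39. Gpnmb was followed by Pogk (0.979), Tmem202 (0.975) and Gde1 (0.974). Spp1 was followed by Gpr39 (0.981), Tmem120b (0.969) and Ptpre (0.964), a phosphatase gene whose mean was 52.9 CPM in Vehicle libraries, 67.9 after 27HC and 53.6 after GW3965. Lgals3 was followed by Pmp22 (0.992), the mechanically gated channel gene Piezo1 (0.992) and Lat2 (0.989). Cst7 was followed by Gtpbp8 (0.973), Ccdc86 (0.956) and Mrpl1 (0.941). The most opposite genes were Smpdl3b for Trem2 (-0.980), Eef1akmt4 for Tyrobp (-0.983), Nlrc4, an inflammasome component, for Gpnmb (-0.980), Nxpe1-ps for Spp1 (-0.937), Adamts1 for Lgals3 (-0.983) and S100a4 for Cst7 (-0.987). The mean of S100a4 was 56.2 CPM in Vehicle libraries, 90.7 after 27HC, 113 after GW3965 and 32.0 after GSK2033.

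**Figure D5:**
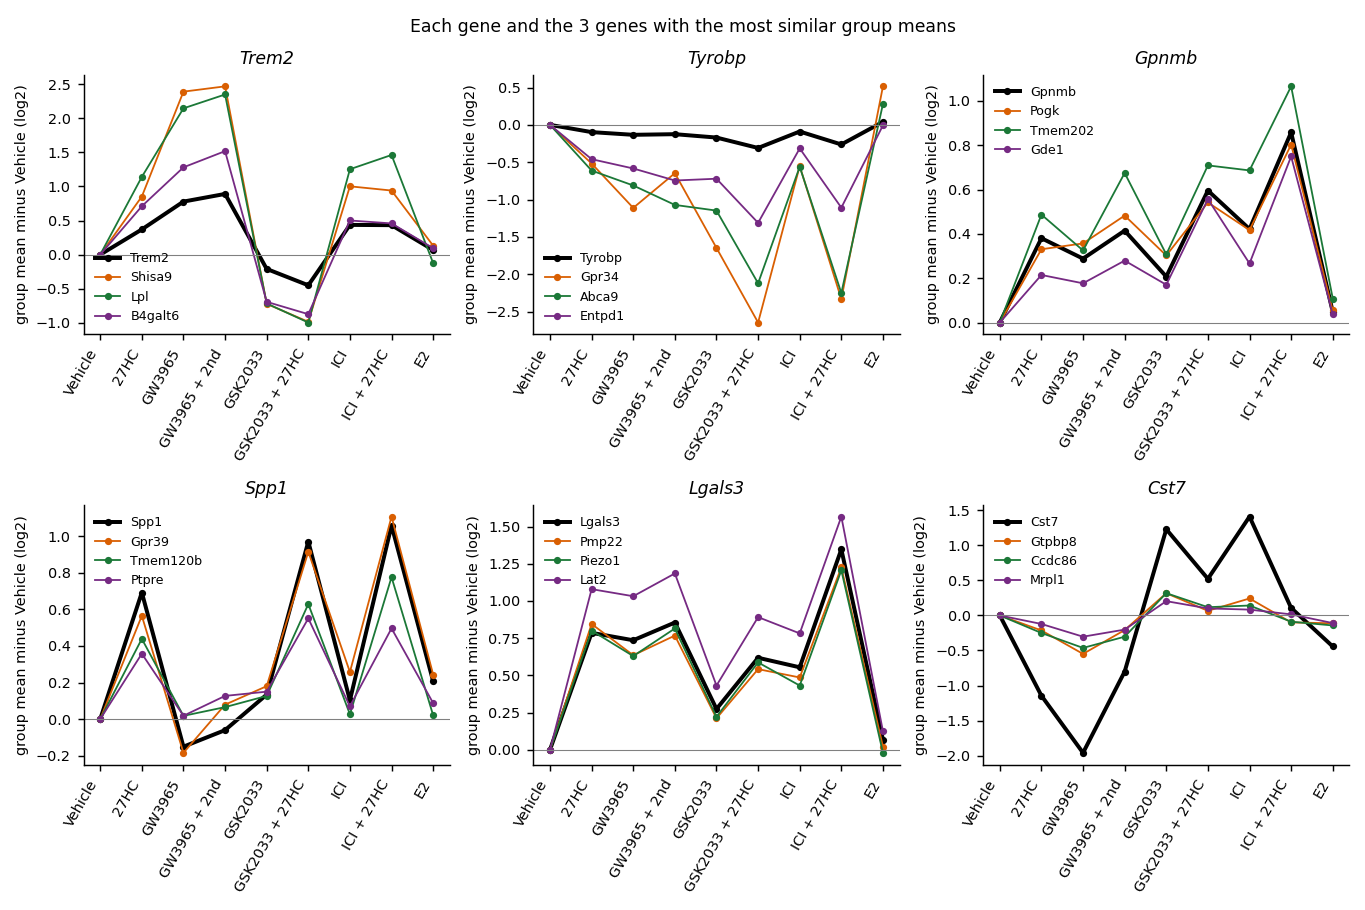
Group mean less the Vehicle mean (log2, y axis) over the 9 groups (x axis) for each of the 6 genes (black) and the 3 genes with the most similar group means (colours). Lpl moves further than Trem2 (2.14 against 0.78 with GW3965) and is highest and lowest in the same groups, and Gtpbp8, Ccdc86 and Mrpl1 move less than Cst7.

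Of 28 other genes of lipid-associated macrophages and disease-associated microglia, 17 rose and 9 fell with 27HC (median 0.18), 16 rose and 8 fell with GW3965 (0.14), and 10 rose and 9 fell with GSK2033 (-0.01). With ICI 18 rose and 3 fell (0.21), with ICI + 27HC 17 rose and 8 fell (0.28), and with E2 4 rose and 2 fell (0.01). Of all genes tested, 40.3% were called with 27HC, 44.2% with GW3965 and 36.3% with GSK2033. The share was 26.4% with ICI, 53% with ICI + 27HC and 4.7% with E2. Cd36, a scavenger receptor for lipids, rose by 1.26 with 27HC and by 1.46 with GW3965 and fell by 0.49 with GSK2033. Lpl rose by 1.14 with 27HC, by 2.14 with GW3965 and by 1.25 with ICI and fell by 0.72 with GSK2033, the directions of Trem2 in each. Since Lpl was picked above for group means like those of Trem2, this match is not a separate result. Fabp4, a carrier of fatty acids, rose by 1.09 with GSK2033 and by 2.04 with ICI + 27HC, as Gpnmb and Lgals3 did. Lgmn, the protease legumain, fell by 0.52 with GSK2033 and by 1.42 with GSK2033 + 27HC.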

How the data were processed

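Per the labels' protocols, stranded TruSeq libraries of polyadenylated RNA were pooled, sequenced on 3 lanes as single reads of 100 nt and demultiplexed with bcl2fastq 2.20. The deposited values are estimated counts per gene, which the authors made with kallisto 0.44.0 on GRCm38, per the submitters' processing notes. How transcripts were summed to genes is not given in the sources used here, and such estimates split reads between near-identical genes by a model. Counts were rounded to whole numbers, and library totals moved by at most 133. GENCODE M21 gave symbols and positions for 24279 of 24671 genes, and the other 392 held 0.455% of the counts. RefSeq's promoter table on GRCm38.p6 gave the sequences.

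Genes with enough counts were kept with filterByExpr, which left 13838. Libraries were scaled by TMM. The quasi-likelihood model of edgeR 4.0.16 (R 4.3.3) was run in its robust form on the 46 libraries together, with a mean for each group and 37 residual degrees of freedom. Group means were contrasted for each difference or interaction, and p-values were adjusted by Benjamini-Hochberg over all genes tested, with a threshold of 0.05. The biological coefficient of variation was 7.55%. The test was checked on simulated data. Log2 levels for means, spans and correlations used a prior count of 2. No pair of libraries was identical, and over 95 replicate pairs the chi-square per degree of freedom was 3.91 to 12.2, more than counting error gives. Totals of 19354093 to 30921038 limit precision only for Cst7.

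By the correlation required of every pair, replicate numbers did not pair the samples, and no block was used in the main fit. No same-numbered pair correlated above 0.1, but 18 of 45 libraries correlated best with their own number, where chance gives about 9. That rule cannot show that a smaller shared effect of replicate number is absent. Alternatives were median-ratio scaling, DESeq2 1.42.0, no filter on low counts, the replicate block, only the groups compared, the 5 libraries with conflicting labels left out, and each replicate left out in turn.

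The 6 genes and all lists were chosen with earlier results of these data known. Named list genes were up to 4 with the smallest p in the comparison described. Similar genes were the 3 with the highest and the 1 with the lowest correlation of group means, passing over predicted genes and genes without a symbol. Lists covered signalling of TREM2 and TYROBP, other receptors linked to TYROBP, lipid-associated macrophage genes, and MiT/TFE factors and targets. They also covered osteopontin receptors, galectins, cystatins with their proteases, and LXR targets, together with markers of other cell types.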

Additional observations from a re-analysis of the deposited data

Results flagged for a closer look

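Of 54 sets of replicate levels (6 genes in 9 groups), 7 held a library far from the others of its group, while chance alone gives such a library in about 1 in 20 sets. In GW3965 with the second compound, replicate 3 was far out for 3 genes. Its Tyrobp level of 781 CPM was above the next highest of 731, its Cst7 level of 3.64 above the next of 2.89, and its Gpnmb level of 6234 below the next lowest of 6545. In ICI + 27HC, replicate 3 was far out for Trem2, at 325 CPM against a next highest of 295, and for Lgals3, at 4816 against 4472. Tyrobp stood at 753 CPM in GSK2033 replicate 5, against a next highest of 709, and Spp1 at 1008 in ICI replicate 4, against 989.

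The change with 27HC differed by test between cultures with and without GSK2033 for 4 genes: the log2 interaction was -0.61 for Trem2, -0.44 for Lgals3, 0.14 for Spp1 and 0.46 for Cst7. Between cultures with and without ICI it differed for Trem2 (-0.37) and Spp1 (0.26). For Trem2 the change with 27HC had opposite signs with and without GSK2033, and for Lgals3, Spp1 and Cst7 it kept its sign and changed in size.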

How the results depend on the processing

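Each of 102 results (6 genes in 17 comparisons) was recomputed under the alternatives, 1800 values in all. The side of the threshold was kept in 1772, and among these were 20 differences that were not called and changed sign. Of the rest, 15 passed the threshold that had not and 13 no longer did. In all, 0 called values changed direction. Median-ratio scaling and DESeq2 shifted the median of all genes by at most 0.00565 on the log2 scale. Counts of all genes called stayed within 1.5 times under every alternative run. With the replicate block, 5 of the 6 genes were called for GW3965 with the second compound against GW3965, in place of 3, since Trem2 (adjusted p = 0.0316) and Spp1 (adjusted p = 0.0165) passed. The block also brought Tyrobp with ICI (adjusted p = 0.0434) and Spp1 with GW3965 and the second compound against Vehicle (adjusted p = 0.0484) past the threshold. By the correlation required of every pair the numbers do not pair the samples: over 180 same-numbered pairs, deviations correlated at -0.07 to 0.10, 0 of them above 0.1, while 18 of 45 libraries correlated best with their own number, where chance gives about 9. Fitting only the groups compared called Trem2 (adjusted p = 0.0193) and Spp1 (adjusted p = 0.0420) between both GW3965 groups and Tyrobp with ICI (adjusted p = 0.0353), and lost Lgals3 between both GW3965 groups (adjusted p = 0.0530) and the interaction of Spp1 with GSK2033 (adjusted p = 0.0508). With no filter on low counts the fall of Tyrobp with 27HC was lost (adjusted p = 0.0660). The cause of these changes was not tested.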

Other observations

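Gm42793, a predicted transcript on the same strand that overlaps Spp1 in GENCODE M21, is not listed in the count table, and none of the other 5 genes overlapped an annotated gene. The dendritic cell markers summed to 0.785 to 2.71 CPM, the B cell markers to 1.13 to 4.40, the neutrophil markers to 0.927 to 3.23 and the mast cell and basophil markers to 3.98 to 11.7 over the 46 libraries, while the erythroid markers stayed at or below 0.392. Within the 9 group means, Cst7 spanned 3.37 on the log2 scale, more than 99.1% of the genes tested, Lgals3 spanned 1.35 (89.6%), Spp1 1.21 (86.8%) and Gpnmb 0.86 (75.5%), and Tyrobp, at 0.35, spanned more than 31.5% of them.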
